A study of Rattus norvegicus with 9 samples.

Results

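Fractures given a gel that carried alendronate were compared with fractures given the gel alone, over all genes. The comparison took 6 of the 9 libraries of the series, 3 labelled ALN+Gel (here ALN gel) and 3 labelled Control or Gel, each made from poly-A RNA of the middle end of a rat femoral fracture. Of the 35360 genes in the count table, 15460 had enough reads to be tested. The remaining 3 libraries came from fractures that received Mg-ALN@Gel (here Mg-ALN gel), which the series title describes as a magnesium-bisphosphonate MOF adhesive, and served in the fit only to estimate how much libraries vary. The series title places all groups in osteoporotic fracture repair. The strain, sex and age of the rats, the dose of ALN and the time of sampling are not given in the sources used here. The labels also do not say whether the 3 libraries of a group came from separate animals, so a p-value here reflects sample-to-sample spread that could be partly technical.

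Alendronate is a bisphosphonate with a nitrogen-containing side chain. It binds bone mineral and is taken up by osteoclasts, the multinucleated cells that resorb bone, where it inhibits farnesyl diphosphate synthase (Fdps), an enzyme of the mevalonate pathway. That pathway makes cholesterol and also the isoprenoid lipids that anchor small GTPases such as Rac and Rab proteins in membranes. Its genes are controlled by sterol regulatory element-binding proteins, which are held back in the endoplasmic reticulum by Insig1 when sterols are plentiful and raise transcription of the pathway, and of Insig1 itself, when sterols are scarce.

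No gene passed the edgeR quasi-likelihood test at an adjusted p of 0.05 (0 of 15460 genes, 0%), and the lowest adjusted p was 0.155. At an unadjusted p under 0.05, 894 genes were higher in ALN gel (5.78%) and 374 were lower (2.42%). The count depended on the tool. DESeq2 called 76 genes higher (0.517% of the 14690 genes it adjusted) and 19 lower (0.129%), limma-voom with sample quality weights called 248 higher (1.6%) and 15 lower (0.097%), and limma on the deposited FPKM values called 0. The 2 count tools shared 65 of the higher genes and 8 of the lower ones, and for all of these the 3 ALN gel libraries lay on 1 side of the 3 Gel libraries in CPM, the count of a gene scaled to the size of its library. With the library number as a block, added after seeing the data for these tools, DESeq2 called 329 genes higher (1.43% of the 23059 it then adjusted) and 236 lower (1.02%), among them 70 and 15 of those called without it. DESeq2 was run without the low-count filter of the edgeR fit. Many of its calls with the block were genes which that filter had left out, with log2 fold changes such as 22.4 and −16.95, so these totals overstate the gain. Limma-voom with the block called 0 (lowest adjusted p 0.0729, with 1450 genes higher and 599 lower at an unadjusted p under 0.05), so no gene was then called by both tools, and every limma-voom call given below was lost with the block. Of the genes named below that DESeq2 called without the block, Arhgef10l was the 1 lost with it (adjusted p 0.0752). Over all genes tested, such a separation without overlap was seen for 1717 genes with ALN gel higher (11.1%) and for 778 with ALN gel lower (5.03%). These shares are the background against which the members of each gene group are read. Higher genes made up 68.8% of the separated genes, and 55.4% where the scaling between libraries left out the mitochondrially encoded genes. Another scaling (RLE) gave 61.2%, and leaving out the low-count filter 55.2%. This share was 64.4% without ALN gel library 1, 49.9% without library 2 (1846 higher, 1856 lower) and 49.7% without library 3 (2604 higher, 2640 lower). Without Gel library 1, 2 or 3 it was 57.5%, 54% and 52.7% (1772 higher, 1591 lower for the last). Without Mg-ALN gel library 1, 2 or 3 it was 68.6%, 55.1% and 68.5%. Those libraries are not compared here and can change separation only through the scaling and the filter. The larger number of higher genes thus depended on single libraries and on the scaling and filter.

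Libraries of the same group were no more alike than libraries of different groups. Log2 CPM values correlated across genes with a mean r of 0.879 over the 6 pairs within a group and 0.878 over the 9 pairs between groups. The first principal component held 41.3% of the variance and set library 1 of each group apart, at −67.8 for Gel and −105 for ALN gel, from the other 4 libraries, at 6.28 to 82.4. Totals were 13388689 to 16837698 counts. The share of counts from mitochondrially encoded genes was 17.5%, 5.40% and 4.16% in Gel libraries 1 to 3 and 39.5%, 15.6% and 7.61% in those of ALN gel. The groups are therefore described below also without library 1 of both groups, a choice made after seeing the data. Libraries of the same number deviated together, so directions within the 3 numbered pairs are given too. The ALN gel library was above the Gel library of its number in 3 of 3 pairs for 22.9% of all genes tested and below it in 3 of 3 for 17.3%. Leaving out library 1 leaves 2 libraries against 2, where 25.6% of all genes tested were separated with ALN gel higher and 19.3% with ALN gel lower.

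Genes of the mevalonate pathway and of cholesterol synthesis were higher in ALN gel almost without exception. All 9 tested genes of the arm that leads from acetyl-CoA to the isoprenoid lipids had positive log2 fold changes (49.8% of all genes tested did), with a median of 0.54, and 7 of them were separated (background 11.1%). Of 12 genes of the later steps to cholesterol 11 were positive, with a median of 0.68, and 6 were separated. The median over all genes tested was −0.0014. Without library 1 of both groups the counts of separated genes were 7 of 9 and 8 of 12, and the medians 0.61 and 0.81. Limma-voom with quality weights called 4 genes of the first list and 3 of the second, DESeq2 1 and 2 (4 and 2 with the block), and edgeR none.

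Insig1, the sensor that retains the sterol regulatory element-binding proteins, had the largest difference in the mevalonate, cholesterol synthesis and sterol sensing lists. Its level was 91.2, 83.1 and 116 CPM in Gel libraries 1 to 3 and 381, 595 and 369 CPM in ALN gel libraries 1 to 3. All 3 ALN gel values were above the highest Gel value, and none of the 3 libraries of either group stood far from the others. The log2 fold change was 2.21 ± 0.33 (SE), with an adjusted p of 0.46 in edgeR, 4.8e-06 in DESeq2 and 0.023 in limma-voom with quality weights. Below, a value in parentheses after the levels of a gene is its log2 fold change, ALN gel minus Gel, with its SE.

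Isopentenyl-diphosphate isomerase (Idi1), which makes the building block that Fdps uses, was at 10.7, 12.8 and 12.1 CPM in Gel and 27.4, 36.0 and 27.1 CPM in ALN gel, a log2 fold change of 1.35 ± 0.22. Fdps, the enzyme that alendronate inhibits, was at 43.3, 44.9 and 43.6 CPM in Gel and 78.2, 88.5 and 76.3 CPM in ALN gel, a log2 fold change of 0.88 ± 0.20. The 3 Gel values of Fdps lay within 2 CPM of each other, and each ALN gel value was at least 1.7 times the highest of them. Hmgcs1, which starts the committed part of the pathway, had a log2 fold change of 0.91 ± 0.22, and Pmvk, a kinase of its middle, 1.20 ± 0.35. Adjusted p-values of Fdps, Hmgcs1 and Pmvk were 0.042, 0.044 and 0.045 in limma-voom with quality weights and 0.066, 0.11 and 0.16 in DESeq2, which with the block called all 3 (0.0414, 0.0469 and 0.0108).

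On the cholesterol side, the enzymes that strip methyl groups from lanosterol, Cyp51 and Msmo1, differed most. Msmo1 was at 13.2, 22.3 and 19.4 CPM in Gel and 43.6, 49.5 and 37.2 CPM in ALN gel (1.25 ± 0.24), and Cyp51 at 38.0, 36.3 and 43.1 and 67.7, 94.0 and 70.1 CPM (0.98 ± 0.19). Squalene synthase (Fdft1), the branch point to cholesterol, was at 21.7, 19.7 and 25.9 CPM in Gel and 39.3, 39.4 and 40.2 CPM in ALN gel (0.82 ± 0.20), and its 3 ALN gel libraries were nearly equal. Sc5d (0.79), Dhcr7 (0.84) and squalene epoxidase, Sqle (0.53), were separated too. The exception was lanosterol synthase (Lss), lower in ALN gel at 7.97, 12.5 and 16.2 CPM in Gel and 4.81, 6.71 and 9.90 CPM in ALN gel, with a log2 fold change of −0.77 ± 0.39. Its groups overlapped, but each ALN gel library was below the Gel library of its number.

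**Figure D1:**
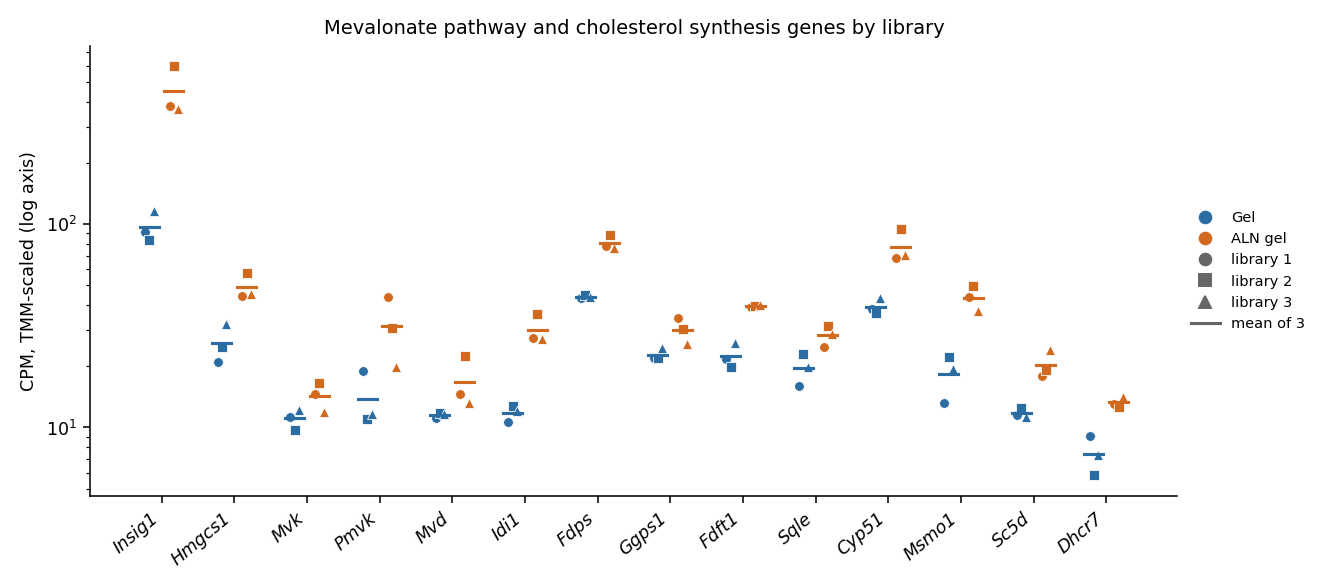
Level of 14 genes of the mevalonate pathway and of cholesterol synthesis in each library, as CPM on TMM-scaled library sizes (log axis), with blue for Gel, orange for ALN gel, a symbol for each library number and a bar at the mean of 3 libraries. Insig1 shows the widest gap, with Gel at 83.1 to 116 CPM and ALN gel at 369 to 595 CPM, while Mvk overlaps.

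The stretch before the start of 4 of these genes is shown because they are among the members whose libraries were separated and their genes share a regulator. The sequences are the 250 bases upstream of the start of the gene in RefSeq, assembly GRCr8, 5′ to 3′ on the strand of the gene, with each CCAAT (or ATTGG, the same letters on the other strand) in capitals. CCAAT is the letters of the box bound by the factor NF-Y, which is known to act beside the sterol regulatory element-binding proteins. The windows lie at chr4:8057770-8058019 (minus strand) for Insig1, chr17:66547525-66547774 (minus) for Idi1, chr16:29746863-29747112 (plus) for Msmo1 and chr2:176804817-176805066 (minus) for Fdps.
Insig1: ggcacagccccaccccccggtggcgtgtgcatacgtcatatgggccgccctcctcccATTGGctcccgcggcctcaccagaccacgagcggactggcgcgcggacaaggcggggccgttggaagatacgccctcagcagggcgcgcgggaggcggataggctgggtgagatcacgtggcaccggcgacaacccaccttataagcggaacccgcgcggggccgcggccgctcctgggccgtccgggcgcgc
Idi1: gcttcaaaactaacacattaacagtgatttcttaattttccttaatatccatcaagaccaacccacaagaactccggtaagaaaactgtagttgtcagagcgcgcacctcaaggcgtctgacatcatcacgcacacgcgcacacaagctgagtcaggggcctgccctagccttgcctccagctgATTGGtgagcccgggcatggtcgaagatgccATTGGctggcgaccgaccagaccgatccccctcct
Msmo1: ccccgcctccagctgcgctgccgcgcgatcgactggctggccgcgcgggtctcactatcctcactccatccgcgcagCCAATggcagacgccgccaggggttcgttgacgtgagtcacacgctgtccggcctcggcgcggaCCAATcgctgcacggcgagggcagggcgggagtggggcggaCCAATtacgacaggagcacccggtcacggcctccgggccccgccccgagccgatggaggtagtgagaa
Fdps: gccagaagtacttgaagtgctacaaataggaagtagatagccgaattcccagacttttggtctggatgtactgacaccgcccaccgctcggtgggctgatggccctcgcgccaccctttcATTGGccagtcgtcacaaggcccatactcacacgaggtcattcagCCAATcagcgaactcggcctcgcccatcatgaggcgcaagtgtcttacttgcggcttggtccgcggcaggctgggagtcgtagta

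The Insig1 window held 1 CCAAT, beginning 193 bases before the start, Idi1 held 2, Msmo1 3 and Fdps 2. Of the 21 genes of the isoprenoid and cholesterol lists 16 were found in the promoter table, and 13 of these (81.2%) held CCAAT on either strand, with 2 or more matches in 8 (50%). Among all 33469 promoters of that source, 34% held at least 1 match and 9.42% held 2 or more. The GC box GGGCGG, on either strand and with overlaps counted, was in the same number of the 16 genes, 13, and in 30.5% of all promoters. The sterol element written as TCACNCCAC, on either strand, was in 0 of the 16 windows and in 0.974% of all, which says only that these letters are not in these windows.

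Genes of the rest of sterol handling were split. Of 12 tested genes of sterol sensing and uptake 8 were positive with a median of 0.21. With ALN gel higher 2 were separated (background 11.1%), Insig1 and the protease gene Mbtps2 (0.25). Of 6 genes of sterol efflux only 1 was positive, with a median of −0.62. The cholesterol exporter Abca1 was at 159, 442 and 354 CPM in Gel and 123, 132 and 116 CPM in ALN gel, so the ALN gel libraries were nearly equal while the Gel libraries differed by up to 2.79-fold. Its log2 fold change was −1.36 ± 0.38, with an adjusted p of 0.046 in limma-voom with quality weights and 0.0797 in DESeq2.

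Genes that use the isoprenoid products showed no such shift. The 9 tested prenylation enzymes had a median log2 fold change of 0.03, which became −0.04 when the scaling left out mitochondrially encoded genes. Only Pggt1b, a subunit of the geranylgeranyl transferase, was separated, at 16.9, 17.5 and 15.4 CPM in Gel and 12.6, 9.48 and 11.4 CPM in ALN gel (−0.57 ± 0.23). Among 13 prenylated small GTPases the median was 0.15 (−0.01 without Gel library 1). Rab7a (0.34), Rap1a (0.34) and Hras (0.43) were separated with ALN gel higher (background 11.1%). Rac2, the Rac form of blood-derived cells, was at 290.3, 221 and 145 CPM in Gel and 547, 574 and 264 CPM in ALN gel (1.08 ± 0.47), with overlap.

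Most genes of osteoclasts had higher values in the ALN gel libraries. In the bone-resorbing list, which holds the proton pump, the chloride and bicarbonate transporters and the secreted proteases of these cells, 15 of 17 genes were positive with a median log2 fold change of 1.20. Of them 13 were separated with ALN gel higher (background 11.1%) and none with ALN gel lower. Of 19 tested genes of osteoclast differentiation and fusion 15 were positive, with a median of 0.70, and 6 were separated. Without library 1 of both groups 15 of 17 and 12 of 19 were separated with ALN gel higher, and 2 and 1 with ALN gel lower. DESeq2 with the block called 5 and 1 higher and none lower. In bulk RNA, more osteoclasts and more of these transcripts per osteoclast cannot be told apart.

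Among receptors, Tnfrsf11a (RANK), which receives the differentiation signal RANKL, was at 50.7, 23.9 and 16.3 CPM in Gel and 86.1, 95.9 and 71.5 CPM in ALN gel (1.48 ± 0.42). Csf1r, the receptor for the survival factor M-CSF, was at 490.2, 459 and 376 CPM in Gel and 689, 803 and 633 CPM in ALN gel (0.68 ± 0.22). The calcitonin receptor (Calcr), found on mature osteoclasts, was at 6.98, 1.35 and 2.57 CPM in Gel and 24.2, 19.1 and 18.2 CPM in ALN gel (2.50 ± 0.73), the largest difference of the differentiation list. All 3 receptors were separated. The ligand side was not higher. Tnfsf11, which encodes RANKL, was at 0.356, 6.43 and 0.564 CPM in Gel and 0.0776, 2.38 and 0.122 CPM in ALN gel (−1.50 ± 1.76), and its decoy receptor Tnfrsf11b was at 8.83, 16.8 and 24.2 CPM in Gel and 5.74, 5.77 and 14.5 CPM in ALN gel (−0.94 ± 0.56). Both overlapped between groups, and both were lower in the ALN gel library of each of the 3 numbered pairs. Over libraries left out, the sign for Tnfsf11 turned without Gel library 2.

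Of the transcription factors, Mitf was separated, at 37.9, 36.4 and 27.5 CPM in Gel and 72.5, 78.6 and 58.0 CPM in ALN gel (1.04 ± 0.28). Nfatc1, the factor that drives the osteoclast programme, was not, because Gel library 1 at 141 CPM exceeded ALN gel library 1 at 103 CPM, while libraries 2 and 3 were at 54.5 and 56.5 CPM in Gel and 215 and 216 CPM in ALN gel. The surface lectin gene Siglec15 was at 46.3, 6.88 and 5.33 CPM in Gel and 66.0, 87.3 and 67.2 CPM in ALN gel (1.92 ± 0.88), and Atp6v0d2, a pump subunit that takes part in cell fusion, at 208, 66.2 and 24.6 and 495, 367 and 293 CPM (1.95 ± 0.73). In both, Gel library 1 lay far above Gel libraries 2 and 3, and without library 1 of both groups the log2 fold change of Siglec15 was 3.66. Limma-voom with quality weights, which gives libraries that stand apart less weight, called Tnfrsf11a, Calcr, Mitf, Siglec15 and Atp6v0d2 (adjusted p 0.028, 0.028, 0.038, 0.028 and 0.046), while DESeq2 called none of them and gave no adjusted p for Siglec15. With the block DESeq2 called Calcr (adjusted p 0.00222).

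The vacuolar proton pump acidifies the space under an osteoclast. Of 16 tested genes whose symbol begins with Atp6v 14 were positive, with a median log2 fold change of 1.11. With ALN gel higher 12 were separated (background 11.1%). Atp6v1c1 was at 149, 135 and 90.0 CPM in Gel and 357, 299.8 and 218 CPM in ALN gel (1.23 ± 0.29), Atp6v1h at 143, 86.1 and 59.5 and 289, 241 and 199.7 CPM (1.34 ± 0.32), and Atp6v1d at 157, 124 and 81.6 and 398, 300.1 and 218 CPM (1.34 ± 0.30). These 3 subunits of the cytoplasmic part of the pump were called by both DESeq2 (adjusted p 0.039, 0.039 and 0.024) and limma-voom with quality weights (0.037, 0.028 and 0.033). The 2 negative members were membrane subunits of other forms of the pump, Atp6v0a1, at 38.7, 118 and 114 CPM in Gel and 26.1, 63.1 and 44.7 CPM in ALN gel (−1.01 ± 0.44), and Atp6v0d1 (−0.33). The osteoclast form of the membrane subunit, Tcirg1, was at 384, 289 and 169 CPM in Gel and 597, 659 and 495 CPM in ALN gel (1.06 ± 0.32).

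The proteases of resorption had some of the highest levels. Cathepsin K (Ctsk), which cuts collagen in bone, was at 8529, 2416 and 1261 CPM in Gel and 14522, 12792 and 10030.5 CPM in ALN gel (1.61 ± 0.76), separated but with a 6.76-fold range within Gel. Mmp9, a gelatinase of osteoclasts, was at 2622, 682 and 352 CPM in Gel and 5973, 7958 and 5241 CPM in ALN gel (2.39 ± 0.78). The phosphatase Acp5, a marker enzyme of osteoclasts, was at 6394, 888 and 415 CPM in Gel and 9823, 5517 and 5363 CPM in ALN gel (1.43 ± 0.89), and Gel library 1 exceeded 2 ALN gel libraries, although each ALN gel library was above the Gel library of its number. Without library 1 of both groups the log2 fold changes of Ctsk, Mmp9 and Acp5 were 2.64, 3.68 and 3.06. The kinase Src, needed for the ruffled border, was separated at 204, 116 and 106 CPM in Gel and 358, 450.1 and 314 CPM in ALN gel (1.40 ± 0.36), as was the bicarbonate exchanger Slc4a2 (1.45 ± 0.51). DESeq2 with the block called Mmp9 (adjusted p 0.0157) and Src (0.0477). The negative members were Mmp14 (−0.57), a membrane protease that fibroblasts also make, and Pstpip2 (−1.90).

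**Figure D2:**
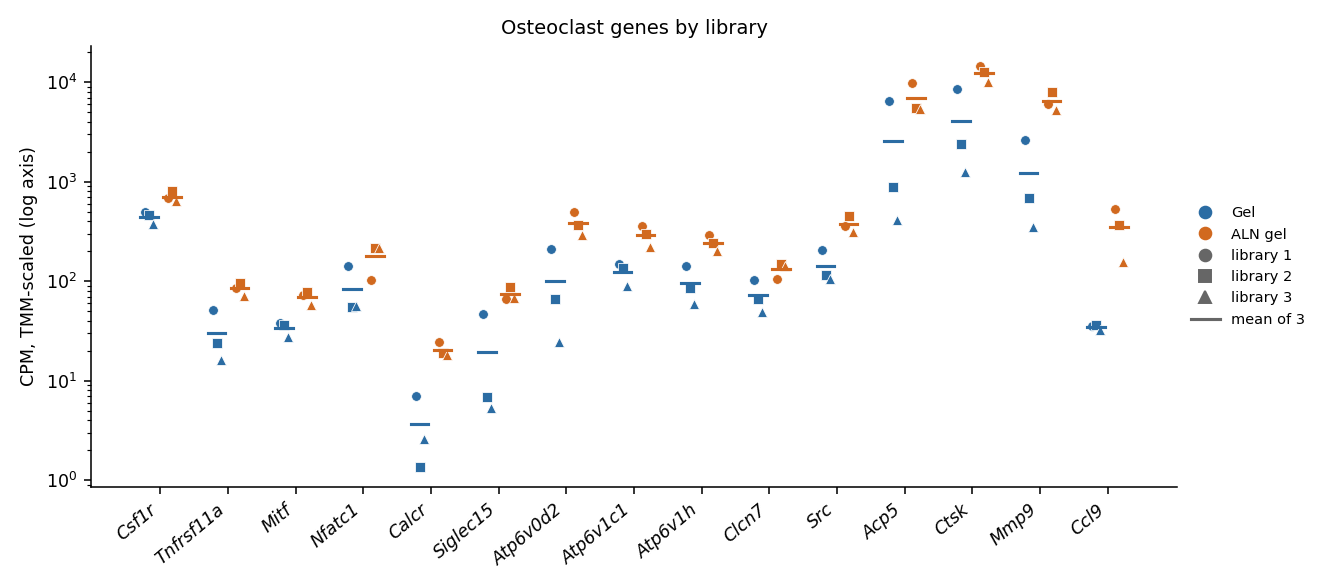
Level of 15 osteoclast genes in each library, as CPM on TMM-scaled library sizes (log axis), with blue for Gel, orange for ALN gel, a symbol for each library number and a bar at the mean of 3 libraries. For most genes the 3 ALN gel libraries lie close together, while Gel library 1 (circle) lies nearer to them than Gel libraries 2 and 3.

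The summed level of 6 osteoclast markers was 15170, 3379 and 1709 CPM in Gel libraries 1 to 3 and 24891, 18740 and 15735 CPM in ALN gel, so Gel library 1 and ALN gel library 3 nearly met. Of the 5 tested markers 3 were separated. Dcstamp, the sixth, had under 10 counts over the 6 libraries. Genes of lysosomes in general had no such direction. Of 20 lysosomal genes 7 were positive, with a median log2 fold change of −0.26, and 4 were separated with ALN gel higher (background 11.1%). These were Gusb (1.82 ± 0.51), Ctsz (1.28 ± 0.36), Neu1 (0.83 ± 0.31) and Ppt1 (0.74 ± 0.29), all enzymes of the lysosome interior, of which DESeq2 with the block called Gusb and Ctsz (adjusted p 0.0157 and 0.0283). Cathepsin L (Ctsl) was lower, at 165, 1743 and 1815 CPM in Gel and 209.5, 532 and 286 CPM in ALN gel (−1.86 ± 0.76), and overlapped because Gel library 1 was the lowest of the 6. The summed level of 9 macrophage markers was 1232 to 2061 CPM in Gel and 1597 to 2302 CPM in ALN gel, so these ranges overlapped.

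Nuclear genes for respiration were higher in ALN gel by modest amounts. All 23 tested subunits of complex I were positive, with log2 fold changes of 0.49 to 2.26 and a median of 0.77, and 21 were separated (background 11.1%). Of 23 subunits of complexes II to V 22 were positive with a median of 0.88, and the same 22 were separated. All 15 genes of the tricarboxylic acid cycle were positive with a median of 0.62 (14 of 15 where the scaling left out mitochondrially encoded genes), and 14 were separated. With library 1 of both groups left out 21 of 23, 22 of 23 and 15 of 15 were separated, against 25.6% of all genes. EdgeR called none of these genes, limma-voom with quality weights called 6, 11 and 5, and DESeq2 0, 2 and 1 (5, 9 and 2 with the block).

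Cytochrome c1 (Cyc1), of complex III, was at 88.8, 92.4 and 75.2 CPM in Gel and 181, 166 and 133 CPM in ALN gel (0.90 ± 0.19), and cytochrome c (Cycs), which carries electrons to complex IV, at 93.9, 107 and 79.2 and 242, 185 and 150.0 CPM (1.04 ± 0.25). Malate dehydrogenase (Mdh2) was at 109, 110.4 and 108 CPM in Gel and 198, 199 and 161 CPM in ALN gel (0.77 ± 0.18). These 3 genes were called by both DESeq2 (adjusted p 0.022, 0.04995 and 0.044) and limma-voom with quality weights (0.033, 0.046 and 0.033). In Mdh2 the 3 Gel libraries were almost equal, and the lowest ALN gel library was 1.46 times the highest of them. Among complex I subunits Ndufb9, at 79.1, 70.7 and 59.9 CPM in Gel and 189.8, 142 and 109 CPM in ALN gel (1.07 ± 0.28), had the smallest p and was called by DESeq2 with the block (adjusted p 0.00686). The exception in complex V was Atp5pb, at 1.92, 1.81 and 27.6 CPM in Gel and 2.48, 1.95 and 0.729 CPM in ALN gel, where Gel library 3 alone was high.

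Other genes that serve mitochondria were among those called by both tools. Timm17a, part of the channel that imports proteins, was at 27.0, 26.7 and 26.3 CPM in Gel and 60.7, 52.5 and 43.8 CPM in ALN gel (0.97 ± 0.19). Chchd6, a component of the folds of the inner membrane, was at 17.9, 12.8 and 9.59 CPM in Gel and 87.8, 36.8 and 35.3 CPM in ALN gel (1.99 ± 0.40), and the complex IV subunit Cox7a2 at 66.4, 68.6 and 46.7 and 207, 121 and 119 CPM (1.30 ± 0.29). Ppargc1b, a coactivator of mitochondrial biogenesis that osteoclasts use, was separated at 4.77, 1.86 and 2.07 CPM in Gel and 5.59, 10.4 and 9.48 CPM in ALN gel (1.55 ± 0.65). Esrra, its partner receptor, overlapped at 0.54. The list that holds Ppargc1b, of iron uptake and mitochondrial biogenesis, did not share its difference. Of 9 tested genes 5 were positive and 4 negative, with a median of 0.11. Ppargc1b was the 1 separated member (background 11.1%).

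Subunits encoded by the mitochondrial genome were also positive in all 13 cases, with a median log2 fold change of 1.55, and none was separated. ALN gel library 1 was far above the others, and Gel library 1 lay above ALN gel library 3 in the genes named here. COX1 was at 56702, 17119 and 11423 CPM in Gel and 156364, 53094 and 20910.1 CPM in ALN gel (1.43 ± 1.04), and ND3 at 1409, 420.4 and 373 and 8559.6, 1818 and 1062 CPM (2.38 ± 0.89). Within the numbered pairs all 13 were higher in ALN gel in 3 of 3 (background 22.9%), and their score, the mean of log2 CPM centred on each gene, was 0.67, −1.29 and −1.62 in Gel libraries 1 to 3 and 2.37, 0.48 and −0.61 in ALN gel. DESeq2 with the block called ND3 (adjusted p 0.016) and none of the other 12. Dropping ALN gel library 1 brought the median to 0.37, dropping Gel library 1 to 2.63 and dropping both to 1.42. With the mitochondrial percentage of each library as a covariate, the medians of the nuclear lists were 0.68 for complex I, 0.72 for complexes II to V and 0.54 for the tricarboxylic acid cycle.

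Most genes of ribosomes and proteasomes had positive log2 fold changes, but few were called. Of 26 tested cytosolic ribosomal proteins 24 were positive with a median of 0.82, and 16 were separated (background 11.1%). Rps3 was at 749, 624 and 498 CPM in Gel and 1441, 1380.0 and 941 CPM in ALN gel (1.01 ± 0.31), and Rpl5 at 739, 556 and 491 and 1541, 1188 and 854 CPM. Many ribosomal genes have near-identical copies, so their counts are uncertain. Of 25 mitochondrial ribosomal proteins 23 were positive with a median of 0.57, and 15 were separated, with Mrpl15 at 45.5, 31.1 and 28.7 CPM in Gel and 93.6, 86.1 and 59.8 CPM in ALN gel (1.19 ± 0.27). Leaving out library 1 of both groups gave 25 of 26 and 20 of 25 separated genes. Limma-voom with quality weights called 5 cytosolic and 2 mitochondrial ribosomal genes, DESeq2 none without the block and 10 and 2 with it, and edgeR none.

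All 27 proteasome subunits were positive, with a median of 0.42, but 24 were where the scaling left out mitochondrially encoded genes. Of them 16 were separated with ALN gel higher (11 under that scaling) and 11 were not. EdgeR, DESeq2 with or without the block, and limma-voom called none. The 14 subunits of the catalytic core (Psma and Psmb genes) had log2 fold changes of 0.36 to 0.72, and 12 of them were separated. The 13 subunits of the regulatory particle (Psmc and Psmd genes) had values of 0.04 to 0.51, and 4 were separated. Psmb1, of the core, was at 132, 121 and 120.1 CPM in Gel and 242, 204 and 168 CPM in ALN gel (0.72 ± 0.30), and Psmd14, of the regulatory particle, at 36.6, 45.3 and 41.6 and 60.5, 59.2 and 56.0 CPM (0.51 ± 0.18).

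The values of cell type markers that could hold mitochondria-rich cells are these. Skeletal muscle markers summed to 65.3, 83.3 and 10056 CPM in Gel libraries 1 to 3 and 2409, 55.4 and 1256 CPM in ALN gel, so the highest value was in Gel. Erythroid markers summed to 6086, 467 and 865 CPM in Gel and 8700, 3696 and 1051 CPM in ALN gel, with overlap but with ALN gel higher in 3 of 3 numbered pairs. The summed level of the osteoclast markers given above did not overlap (15735 CPM in the lowest ALN gel library, 15170 CPM in the highest Gel library), and 3 of the 5 tested markers were separated. The part of erythroid cells and osteoclasts in the difference of the respiratory genes was not tested.

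**Figure D3:**
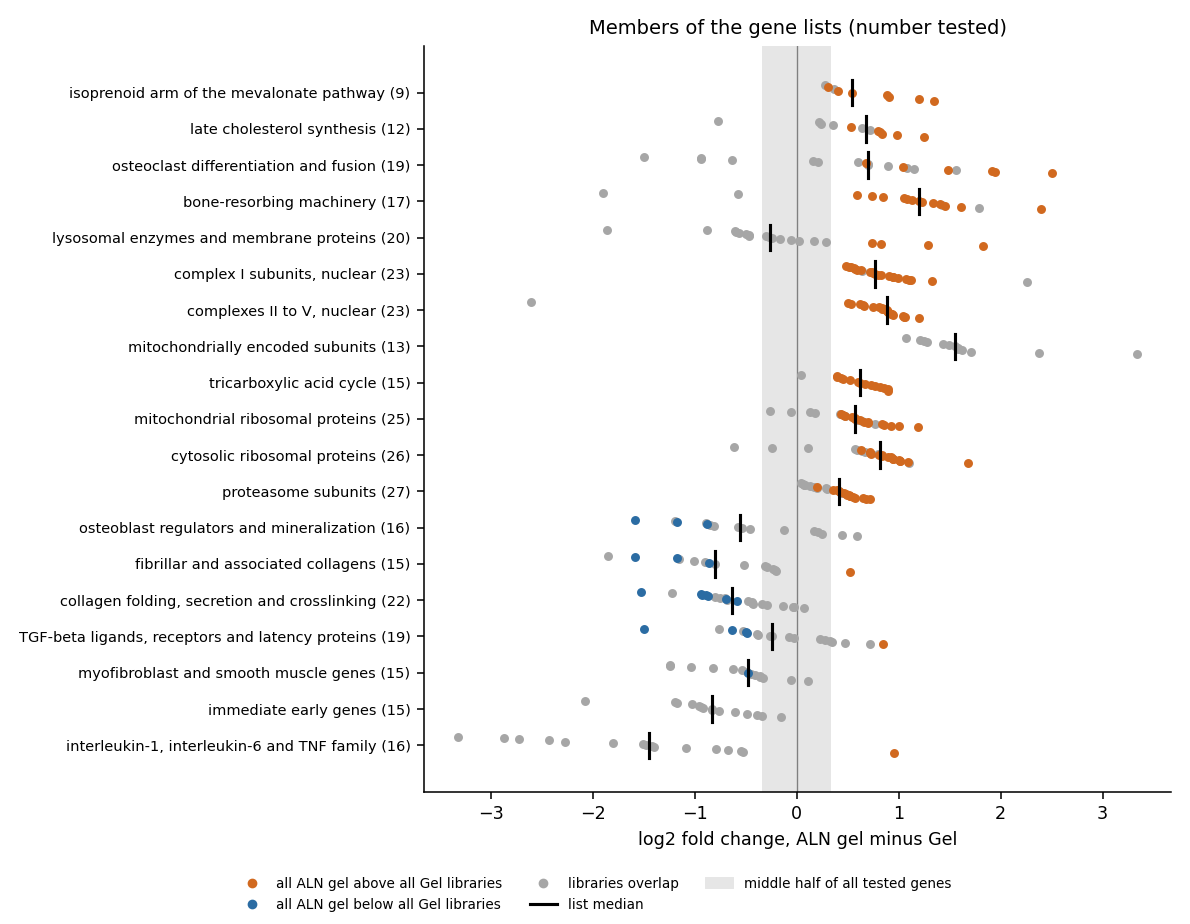
Log2 fold change (ALN gel minus Gel) of every tested member of 19 gene lists, with orange for members whose 3 ALN gel libraries all lie above the 3 Gel libraries, blue for the opposite, grey for overlap, a black bar at the list median and a grey band over the interquartile range of all tested genes. The respiratory lists sit as tight clusters to the right of 0, with medians of 0.77 and 0.88, and the collagen folding list to the left, with a median of −0.63.

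The values of genes of bone-forming cells depended on Gel library 1. Of 16 tested osteoblast and mineralization genes 5 were positive, with a median log2 fold change of −0.56, and 3 were separated with ALN gel lower (background 5.03%), the matrix genes Col1a1, Col1a2 and Sparc. Without Gel library 1 the median was 0.55, with 13 positive. Osteocalcin (Bglap), a protein of mature osteoblasts, was at 2295, 234 and 185 CPM in Gel and 548, 412 and 224 CPM in ALN gel. Gel library 1 was 4.19 times the highest ALN gel library, while Gel libraries 2 and 3 lay near or below the lowest of them. The log2 fold change over all 3 libraries was −1.20 ± 1.42. The summed level of 6 osteoblast markers, mostly Col1a1, was 104400, 40684 and 48129 CPM in Gel and 15889, 23462 and 31233 CPM in ALN gel.

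Sost, which encodes the osteocyte protein sclerostin, an inhibitor of Wnt signalling in bone, is a gene that the series design names. It was at 1.85, 0.282 and 0.313 CPM in Gel and 9.23, 4.46 and 6.93 CPM in ALN gel, low in all libraries but with every ALN gel library above every Gel library. The counts behind the Gel values were 26, 5 and 5. Its log2 fold change was 3.08 ± 0.92, with an adjusted p of 0.53 in edgeR, 0.0495 in DESeq2 and 0.0397 in limma-voom with quality weights. Other osteocyte genes did not move with it as a group. At an unadjusted edgeR p under 0.05, 2 of the 10 tested were higher, Sost among them, and 1 was lower. Of 10 tested 4 were positive with a median of −0.81, and the mineralization regulator Phex was at 47.5, 8.58 and 7.08 CPM in Gel and 7.60, 1.38 and 7.47 CPM in ALN gel (−1.94 ± 1.01). The osteocyte hormone Fgf23 was at 0.356, 6.88 and 0.752 CPM in Gel and 0.155, 0.188 and 0.182 CPM in ALN gel, so it was separated with ALN gel lower, but only Gel library 2 was above 1 CPM.

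Wnt genes had no clear direction. Of 20 tested receptors, ligands and targets 6 were positive with a median of −0.54, but without library 1 of both groups the median was −0.01. The ligand Wnt5a was separated at 39.5, 54.2 and 76.9 CPM in Gel and 7.06, 27.0 and 35.6 CPM in ALN gel (−1.29 ± 0.62), and the cell cycle gene Ccnd1, counted here as a Wnt target, was separated in the other direction, at 95.7, 44.1 and 71.1 and 171, 117 and 174 CPM (1.13 ± 0.37). These 2 of 20 compare with 5.03% of all genes separated with ALN gel lower and 11.1% with ALN gel higher. Wnt5a was called by DESeq2 with the block (adjusted p 0.00663), and no tool called a gene of this list without it. Of 8 secreted antagonists other than Sost 1 was positive and none was separated. Of 16 tested cartilage genes 6 were positive with a median of −0.24. Col11a1, a minor chain of cartilage fibrils that osteoblasts also make, was the separated member, at 1730.3, 733 and 696 CPM in Gel and 252, 474 and 385 CPM in ALN gel (−1.51 ± 0.41), and it was called by DESeq2 (adjusted p 0.046) but not by limma-voom with quality weights (0.13).

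Most collagen genes and most genes that fold and export collagen had negative log2 fold changes. Of 15 tested collagen genes 14 were negative with a median of −0.80, and 3 were separated with ALN gel lower (background 5.03%) and 1, Col27a1, with ALN gel higher (0.52; it overlapped where the scaling left out mitochondrially encoded genes). No tool called any of the 15 without the block, and with it DESeq2 called Col1a1 and Col1a2 (adjusted p 0.0299 and 0.0407). Col1a1, which encodes the chain that makes up most of type I collagen, was at 97454, 38606 and 47262 CPM in Gel and 10756, 21141 and 29177 CPM in ALN gel (−1.59 ± 0.65). ALN gel library 1 was lowest and Gel library 1 highest. Col3a1, the collagen of early repair tissue, was at 6185, 15326 and 15308 CPM in Gel and 926, 6201 and 18624 CPM in ALN gel (−0.52 ± 0.88), where ALN gel library 3 was the highest of the 6. The collagen median without library 1 of both groups was −0.45, with 12 of 15 negative and 6 separated with ALN gel lower, against 19.3% of all genes. It was −0.32 without ALN gel library 1 alone, with 6 of 15 positive.

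In the folding and secretion list, as in the collagen list, 1 member went the other way. Of 22 tested genes 21 were negative, with a median of −0.63, and 7 were separated with ALN gel lower (background 5.03%). Creb3l1, the transcription factor of the endoplasmic reticulum that raises collagen export genes in osteoblasts, was at 256, 201 and 200.5 CPM in Gel and 44.1, 106 and 78.0 CPM in ALN gel (−1.53 ± 0.30). Bmp1, the protease that trims procollagen, was at 459.5, 311 and 324 CPM in Gel and 178, 170.0 and 224 CPM in ALN gel (−0.94 ± 0.24). Both were called by DESeq2 (adjusted p 0.0045 and 0.037) and by limma-voom with quality weights (0.045 and 0.046).

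The other 5 separated members cover the steps of collagen assembly. They were the chaperone Serpinh1 (2066, 1949.9 and 1517 CPM in Gel and 781, 911 and 1305 CPM in ALN gel, −0.88 ± 0.30), the proline hydroxylase P3h1 (−0.87 ± 0.27), the prolyl isomerase Fkbp14 (−0.58 ± 0.21), the vesicle coat gene Sec24d (−0.69 ± 0.33) and the enhancer of Bmp1, Pcolce (−0.93 ± 0.35). General chaperones of the endoplasmic reticulum did not share this. Of 16 tested 8 were positive with a median of 0.01 (−0.05 where the scaling left out mitochondrially encoded genes). The median of the collagen folding list without library 1 of both groups was −0.27, with 17 of 22 negative. With ALN gel lower 9 of 22 were then separated, against 19.3% of all genes.

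TGF-beta genes were not called by any tool without the block. Of 19 tested ligands, receptors and latency proteins 7 were positive with a median of −0.25. With ALN gel lower 4 were separated (background 5.03%), and with ALN gel higher 1 (background 11.1%). Tgfb1 itself was at 242, 249 and 202 CPM in Gel and 115, 196 and 182 CPM in ALN gel (−0.49 ± 0.24), and the signal carrier Smad3 at 91.0, 51.9 and 45.5 and 39.3, 43.1 and 38.8 CPM (−0.64 ± 0.26). The higher one was Nrros (0.85 ± 0.26), which holds latent TGF-beta on myeloid cells. Dropping ALN gel library 1, or library 1 of both groups, moved this median to 0.03. Of 14 response genes 10 were negative with a median of −0.44. Timp1, an inhibitor of matrix proteases, was the separated one, at 362, 1063 and 583 CPM in Gel and 183, 273 and 285 CPM in ALN gel (−1.44 ± 0.41), and DESeq2 with the block called it (adjusted p 0.0107).

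Genes of myofibroblasts, the contractile cells of scar tissue, were not called by any tool, with or without the block. Of 15 tested 14 were negative with a median of −0.48 (−0.21 without ALN gel library 1, with 4 positive). With ALN gel lower, 1 of 15 was separated (background 5.03%) and 6 of 15 were lower in all 3 numbered pairs (background 17.3%). The separated gene was Smtn, at 84.1, 89.1 and 109.5 CPM in Gel and 50.1, 77.2 and 75.8 CPM in ALN gel (−0.48 ± 0.24). Smooth muscle actin (Acta2) was at 116, 432 and 378 CPM in Gel and 16.1, 161 and 215 CPM in ALN gel (−1.24 ± 0.87), where ALN gel library 1 was far below the others. Lumican (Lum), a proteoglycan of fibroblasts, was at 2258, 4268 and 4424 CPM in Gel and 1166, 1760.0 and 2641 CPM in ALN gel (−0.98 ± 0.43). The fibroblast markers summed to 2488, 4591 and 4768 CPM in Gel and 1294, 1944 and 3302 CPM in ALN gel, lower in ALN gel in 3 of 3 numbered pairs but with overlap between groups, and their part in the matrix genes was not tested.

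**Figure D4:**
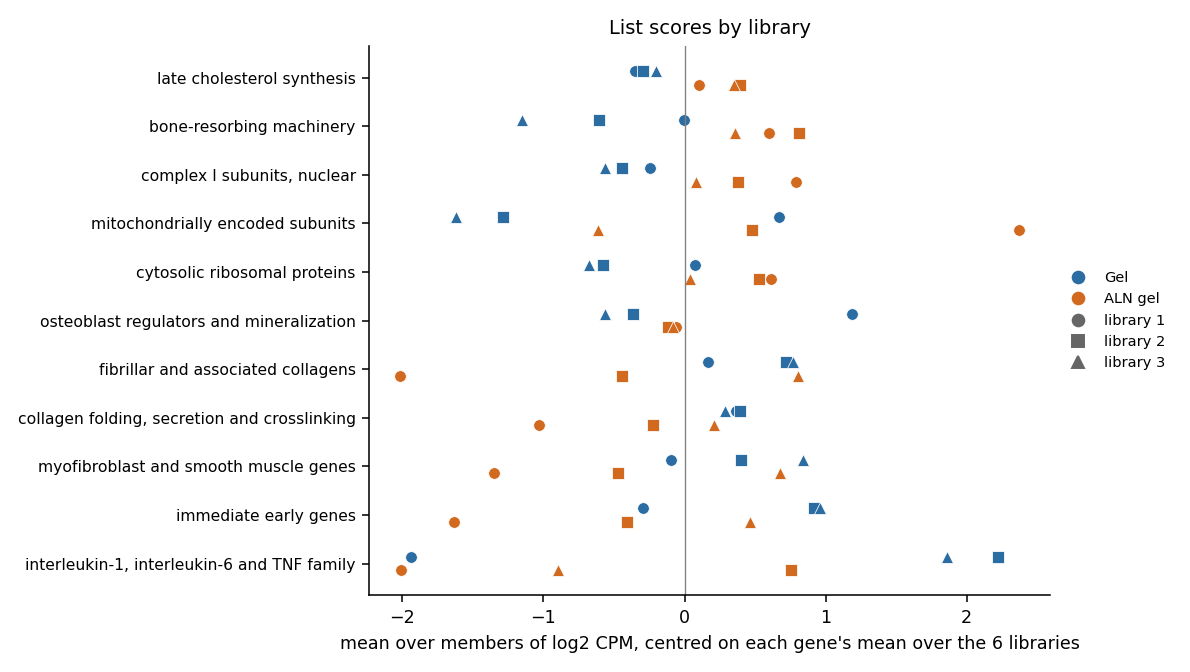
Score of 11 lists in each library, the mean over members of gene-centred log2 CPM (blue Gel, orange ALN gel, a symbol for each library number). The cholesterol, bone-resorbing and complex I scores do not overlap between groups, whereas the osteoblast score is highest in Gel library 1 and the interleukin score is low in library 1 of both groups.

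Inflammatory genes varied widely between the libraries of each group, and were low in library 1 of both. Of 16 tested genes of the interleukin-1, interleukin-6 and TNF family 15 were negative with a median of −1.45, yet none of the 15 was separated, and the positive member, Lif (0.96 ± 0.78), was. Their score was −1.94, 2.22 and 1.86 in Gel libraries 1 to 3 and −2.01, 0.76 and −0.90 in ALN gel. Within the numbered pairs 8 of the 16 were lower in ALN gel in 3 of 3 (background 17.3%), and DESeq2 with the block called 3 lower. Interleukin-6 (Il6) was at 1.49, 22.8 and 15.8 CPM in Gel, while ALN gel library 1 had 0 counts and libraries 2 and 3 were at 5.15 and 0.851 CPM. The chemokine Cxcl1 was at 5.27, 99.9 and 51.0 CPM in Gel and 1.71, 12.5 and 6.02 CPM in ALN gel (−2.94 ± 0.95), called by DESeq2 with the block (adjusted p 0.00325). Both were lower in ALN gel in all 3 numbered pairs. Without library 1 of both groups 12 of the 16 were separated with ALN gel lower, against 19.3% of all genes.

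Immediate early genes, which cells switch on soon after a stimulus, were negative in 15 of 15 cases, with a median of −0.83 and none separated. In 11 of the 15 the ALN gel library was the lower one in all 3 numbered pairs (background 17.3%), and no tool called any of them, with or without the block. Zfp36, which destabilizes inflammatory messages, was at 86.1, 798 and 310.1 CPM in Gel and 44.8, 129 and 108 CPM in ALN gel (−2.08 ± 0.71). Neutrophil markers summed to 141, 1257 and 851 CPM in Gel and 546, 557 and 90.5 CPM in ALN gel, so low and high libraries occurred in both groups. The part of such cells in the inflammatory genes was not tested.

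Against this, the chemokine Ccl9 had the smallest edgeR p of all annotated genes. It was at 35.2, 36.5 and 32.2 CPM in Gel and 529, 363 and 155 CPM in ALN gel, so the 3 Gel libraries were close together and the lowest ALN gel library was 4.23 times the highest of them. The log2 fold change was 3.33 ± 0.41, with an adjusted p of 0.16 in edgeR, 7.2e-11 in DESeq2 and 0.023 in limma-voom with quality weights. Without ALN gel library 3, the lowest of its group, Ccl9 was the only gene that edgeR called, with an adjusted p of 0.00883. Ccl9 is a chemokine that osteoclasts are known to make and that attracts their precursors. The other 21 tested chemokines and receptors had 6 positive members and none was separated. DESeq2 with the block called 2 genes of this list higher, Ccl9 among them, and 3 lower (1.43% and 1.02% of all genes it adjusted). Ccl22, a chemokine gene outside the list, was called higher by DESeq2 without the block (log2 fold change 2.25, adjusted p 0.00926).

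Several genes called by both tools belong to none of the gene lists, which was true of 54 of the 65 higher and 3 of the 8 lower genes. Pax8, a developmental transcription factor, was at 15.9, 8.29 and 6.27 CPM in Gel and 46.2, 45.7 and 26.8 CPM in ALN gel (1.96 ± 0.38). Rufy4, a regulator of autophagy and lysosome position, was at 17.3, 12.4 and 13.8 CPM in Gel and 46.8, 41.9 and 28.1 CPM in ALN gel (1.42 ± 0.25). Emc4, of the complex that inserts proteins into the endoplasmic reticulum membrane, was at 47.3, 43.7 and 23.8 CPM in Gel and 218, 174 and 117 CPM in ALN gel (2.15 ± 0.36). The other higher genes with the smallest p were Msantd3 (1.24 ± 0.20), Avpi1 (1.73 ± 0.31), Cpped1 (1.19 ± 0.23) and Snap47 (1.09 ± 0.21). Asic4 (2.88 ± 0.59), Kirrel2 (2.52 ± 0.70) and Fam71f2 (2.78 ± 0.55) differed more, at levels of at most 20.3 CPM. A locus with no annotation on chromosome 2 (60735522 to 60786230, plus strand, in the coordinates of the deposited table), was at 9.75, 11.4 and 7.34 CPM in Gel and 47.2, 32.5 and 43.5 CPM in ALN gel (2.11 ± 0.25).

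The largest lower difference among genes called by both tools was that of Selenow, which encodes a small selenoprotein. It was at 47.4, 41.2 and 42.9 CPM in Gel and 1.01, 2.51 and 7.29 CPM in ALN gel, a log2 fold change of −3.59 ± 0.64, with an adjusted p of 0.49 in edgeR, 1.3e-05 in DESeq2 and 0.023 in limma-voom with quality weights. The Gel libraries were nearly equal, and the ALN gel libraries differed among themselves by up to 7.23-fold. Selenoproteins as a group did not follow, with 11 of 17 tested genes positive and a median of 0.03 (−0.03 where the scaling left out mitochondrially encoded genes).

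Serpina3n, Ptx3 and Cebpd were lower as well, and were set side by side after their values were seen. Serpina3n, a protease inhibitor, was at 84.9, 302 and 444 CPM in Gel and 13.6, 30.7 and 49.3 CPM in ALN gel (−3.15 ± 0.68), and Ptx3, a pentraxin, at 63.6, 309 and 47.8 and 7.76, 21.6 and 8.99 CPM (−3.45 ± 0.80). Cebpd, a transcription factor of the C/EBP family, was at 97.4, 280.0 and 124 CPM in Gel and 39.6, 59.6 and 60.0 CPM in ALN gel (−1.65 ± 0.42). Their Gel libraries spread widely, but the highest ALN gel library was below the lowest Gel library in each. DESeq2 called all 3 (adjusted p 0.0008, 0.0014 and 0.043), and limma-voom with quality weights called Serpina3n (0.028).

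Pcsk5, a convertase that cuts secreted precursors, was at 20.4, 45.8 and 70.7 CPM in Gel and 3.34, 3.76 and 14.2 CPM in ALN gel (−2.68 ± 0.68). Aldh1l2, a mitochondrial enzyme of folate metabolism and a target of the stress factor Atf4, was at 46.9, 52.9 and 53.4 CPM in Gel and 15.5, 23.0 and 28.0 CPM in ALN gel (−1.20 ± 0.25), with close libraries in both groups. Its list, of Atf4 targets and serine-folate genes, did not share this, with 10 of 21 tested genes positive and a median of −0.21 (0.07 without Gel library 1). Oas1k, of the family of interferon-induced synthetases, was at 12.2, 13.1 and 17.3 CPM in Gel and 7.68, 4.83 and 5.29 CPM in ALN gel (−1.26 ± 0.26), while 14 of the other 19 interferon-induced genes were negative and none of them was separated. Arhgef10l, an exchange factor for small GTPases, differed by little but evenly, at 58.6, 62.7 and 56.9 CPM in Gel and 33.7, 36.0 and 40.2 CPM in ALN gel (−0.70 ± 0.16).

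**Figure D5:**
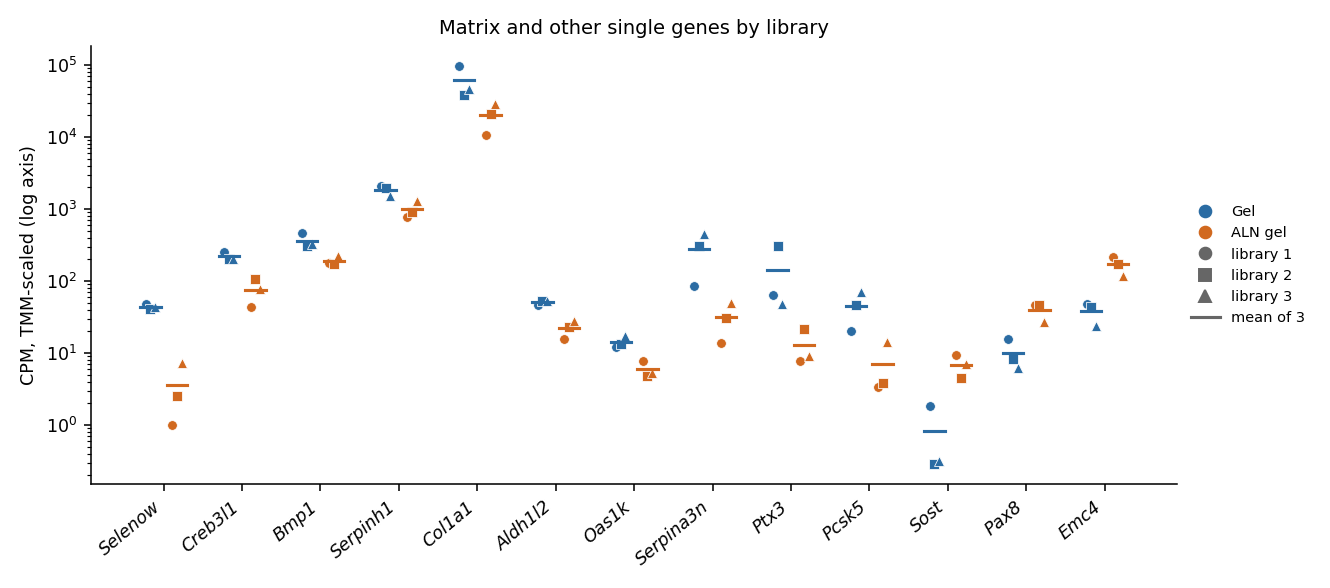
Level of 13 matrix genes and other single genes in each library, as CPM on TMM-scaled library sizes (log axis), with blue for Gel, orange for ALN gel, a symbol for each library number and a bar at the mean of 3 libraries. Every gene shown has its 3 ALN gel libraries on 1 side of the 3 Gel libraries, and Selenow has the Gel libraries at 41.2 to 47.4 CPM and the ALN gel libraries at 1.01 to 7.29 CPM.

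Glycolysis and proliferation did not show the shift seen in respiration. Of 22 tested genes of hypoxia and glycolysis 9 were positive with a median of −0.13, and only the phosphofructokinase gene Pfkp was separated, at 23.4, 31.7 and 25.5 CPM in Gel and 49.3, 72.1 and 52.8 CPM in ALN gel (1.11 ± 0.33). The glucose transporter gene Slc2a1 was at 24.8, 355 and 122 CPM in Gel and 20.9, 80.8 and 49.7 CPM in ALN gel (−1.73 ± 0.85), where library 1 of both groups was low. Of 22 cell cycle genes 16 were positive with a median of 0.13, and none was separated. Without ALN gel library 1 that median was −0.19, and without Gel library 1 it was 0.53. Of 11 antigen presentation genes 5 were positive with a median of −0.18, and 2 were separated with ALN gel lower (background 5.03%). They were Ciita, the master regulator of class II genes, at 18.2, 21.5 and 19.9 CPM in Gel and 12.3, 16.3 and 10.3 CPM in ALN gel (−0.61 ± 0.24), and the class II gene RT1-Bb, at 120.5, 213 and 132 and 88.7, 117 and 112 CPM (−0.55 ± 0.54). No tool called either gene.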

How the data were processed

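The series holds 9 poly-A RNA libraries of rat femoral fracture tissue. The authors deposited whole-number read counts per gene and, in the same table layout, FPKM values. Per the submitters' processing notes, fastp, HISAT2 2.0.5, StringTie 1.3.3b and featureCounts 1.5.0-p3 were among the tools used; the genome build and the strand setting are not given in the sources used here.

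Groups were taken from the labels, 3 libraries each. The deposited counts of all 9 libraries were fitted with edgeR 4.0.16 (TMM scaling, low-count filter, quasi-likelihood test, contrast ALN gel minus Gel, Benjamini-Hochberg adjustment over all tested genes, threshold 0.05). Levels are CPM on TMM-scaled library sizes. A gene is called separated when no library of one group lies within the range of the other. DESeq2 1.42.0, limma 3.58.1 (voom with quality weights, and log2(FPKM + 1)), other scalings, left-out libraries and blocks were alternatives. The scripts were tested on simulated data. No pair of libraries agreed within sampling noise.

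Libraries with the same number deviated together from their group means (r = 0.341, 0.419 and 0.226 for numbers 1, 2 and 3, against −0.283 to −0.0125 for other pairs), so the numbers were treated as pairs in the alternative fits with a replicate block. Deviations within a group cancel out for each gene, so positive values for same-numbered pairs push the other pairs below them. The negative values are therefore no independent comparison. The labels do not say what a number stands for.

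The comparison and the gene lists were chosen with earlier results of these data known. Genes were named by a rule: 10 fixed genes, those with the smallest p or the largest separated difference in each direction, up to 4 members of each list by p, and genes called by both DESeq2 and limma-voom. Other list members were named after their values were seen. Promoter sequences are from RefSeq, GRCr8, matched by symbol.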

Additional observations from a re-analysis of the deposited data

How the results depend on the processing

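EdgeR called 0 genes higher and 0 lower with the replicate block, whether 9 or 6 libraries were fitted, as it did without it, so this shows nothing about the pairing. The block moved the other tools, in opposite directions. DESeq2 with the replicate block called 329 higher and 236 lower, and limma-voom 0 and 0. Many of these DESeq2 calls were genes left out by the low-count filter, which was not applied to DESeq2. EdgeR also called 0 under the other scalings, without the low-count filter and with the mitochondrial percentage as a covariate. Without the block the calls of DESeq2 were 76 higher and 19 lower, and those of limma-voom 248 and 15. In edgeR, leaving out 1 library at a time gave 0 to 1 called higher genes and 0 called lower genes. DESeq2 and limma-voom were not run with libraries left out. Separated genes numbered 1379 to 3332 with ALN gel higher and 803 to 2640 with ALN gel lower over the libraries left out, with the upper ends when Gel library 1 and ALN gel library 3, respectively, were dropped. Without library 1 of both groups, chosen after seeing the data, they numbered 4049 and 3048, where fewer libraries make separation easier. Without the low-count filter 1262 genes were separated with ALN gel lower. The cause of the differences between tools, and between fits with and without the block, was not tested. Of the single genes named, 3 changed sign. The log2 fold change of Bglap was 0.47 with limma-voom, 0.36 with limma-voom and the block, and 0.60 without library 1 of both groups, and ranged from −1.70 to 0.91 over the libraries left out, turning positive without Gel library 1. That of Tnfsf11 ranged from −4.60 to 0.86, turning without Gel library 2, and that of Col3a1 from −1.84 to 0.018, turning without ALN gel library 1. The biological coefficient of variation in the edgeR fit was 51.4%.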

Other observations

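The list of metalloproteases, ADAMTS proteases and their inhibitors held 19 tested genes, Mmp9 and Mmp14 among them, of which 4 were positive, with a median log2 fold change of −0.87. Mmp9 and Mmp13 were separated with ALN gel higher (background 11.1%) and the inhibitor gene Timp1 with ALN gel lower (background 5.03%), so no protease was separated with ALN gel lower. DESeq2 with the block called Mmp9 higher and 5 genes lower, Adamts1, Adamts4, Mmp10, Mmp19 and Timp1. Mmp13, the collagenase of hypertrophic cartilage and osteoblasts, was at 2445, 4222 and 2699.7 CPM in Gel and 9188, 4689 and 4393 CPM in ALN gel (0.96 ± 0.47). Small leucine-rich proteoglycans and matricellular proteins had 5 of 19 positive, a median of −0.52 and none separated. The osteocyte transcription factor gene Irx5 was separated with ALN gel lower, at 44.1, 13.5 and 13.5 CPM in Gel and 12.8, 10.2 and 11.2 CPM in ALN gel (−1.05 ± 0.47).

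Among immune cell markers, Cd4 (0.70 ± 0.25), the natural killer cell gene Nkg7 (0.88 ± 0.74) and the early neutrophil protease gene Elane (1.52 ± 0.84) were separated with ALN gel higher, at levels of 198, 203 and 124, 7.91, 4.02 and 3.46 and 17.6, 8.28 and 4.98 CPM in ALN gel libraries 1 to 3, respectively. Without library 1 of both groups their log2 fold changes were 0.69, 0.35 and 1.09. Of 8 tested T and natural killer cell markers 6 were positive and 2 were separated, Cd4 and Nkg7 (background 11.1%). Of 8 tested neutrophil markers 4 were positive and 4 negative, and Elane was the 1 separated. The summed T and natural killer cell markers overlapped, at 145 to 231 CPM in Gel and 160 to 286 CPM in ALN gel. Mast cell markers summed to 28.5 to 350 CPM in Gel and 103 to 227 CPM in ALN gel, and adipocyte markers to 201 to 472 and 351 to 750 CPM, again with overlap.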
